A study of Homo sapiens with 30 samples.

Results

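The comparison described here is of RNA from U251 glioblastoma cells after 14 days of interferon-γ (IFN-γ) with RNA from the same cells after 3 days of it, and it asks how the response to the cytokine differed between the early and the later time. Its members are the 3 libraries of day 14 (D14) and the 3 libraries of day 3 (D3) in the U251 table, 6 of the 15 libraries of that line and of 30 in the series. The deposited unit, TPM by the name of the file, gives transcript abundance scaled by length and library. A supplementary sheet of the study names its matrices CPM, which are not scaled by length, so levels of different genes are less surely comparable than levels of 1 gene. Genes whose TPM averaged 0.5 or more over these 6 libraries were tested, which were 23945 of the 61471 symbols in the table. The study exposed a pair of human glioblastoma lines to IFN-γ for up to 28 days and sequenced bulk RNA. U251, labelled U251-MG with genotype WT, is an established astrocytic glioblastoma line. Per the study's methods, a register names it among lines prone to mix-ups, and no STR profile was made to check its identity once it had arrived. U251 was grown in DMEM with fetal bovine serum. Per the study's methods the replicates are independent culture preparations.

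The D3 and D14 cultures received IFN-γ for 3 and 14 days. The other U251 groups, of 3 libraries each, are used for levels beside these. Untreated cells received none, D28 cells received it for 28 days, and D28WO cells received it for 14 days and were then kept without it until day 28. The labels and the study's methods give different doses of IFN-γ and different collection days for the Untreated cells, so no dose is given here. No group without IFN-γ was collected at day 14, so the length of the exposure and the time in culture cannot be told apart. Each library of the authors' TPM table sums to 1000000, which hides its read depth, and where a gene is listed at 0 in a library no limit can be given and its log2 fold change depends on the pseudocount. A symbol had a value above 0 in 26475 to 28365 cases per D3 library and in 27763 to 29771 cases per D14 library. Across genes, log2(TPM + 1) of libraries correlated with r of 0.957 to 0.966 within D3, 0.965 to 0.969 within D14 and 0.936 to 0.946 between them, where genes are not independent replicates.

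The label of an astrocytic tumour line was checked against marker genes. The 9 astrocyte or glioma markers summed to 1193 to 1401 TPM at D3 and 2078 to 2460 TPM at D14. They were led by the intermediate filament VIM, which is also the most abundant gene of the mesenchymal list. Of the 9, 7 passed the filter, with ALDH1L1 low among them at a mean log2(TPM + 1) of 0.56. AQP4, at 0.0423, 0 and 0 TPM at D3, and OLIG2, at 0.2075, 0.1384 and 0.1074 TPM at D3, did not pass it. Leukocyte markers summed to at most 3.04 TPM in any of the 6 libraries, and CD2 and MS4A1 were listed at 0 in all 6. Microglia or macrophage markers summed to 6.77 to 10.4 TPM at D3 and 5.94 to 8.39 TPM at D14, with CD14 the most abundant and AIF1, TYROBP and P2RY12 listed at 0. Epithelial markers summed to 6.89 to 8.49 TPM and 4.81 to 8.72 TPM in the same order, led by CLDN4, with KRT14 listed at 0.

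IFN-γ binds a receptor of IFNGR1 and IFNGR2, whose kinases JAK1 and JAK2 pass the signal to proteins of the STAT family, and short DNA elements called GAS mark genes that respond. Among the first genes switched on are the transcription factor IRF1, which binds interferon-stimulated response elements (ISRE), and CIITA, the co-activator that switches on HLA class II genes, while SOCS1 blocks the kinases and so limits the signal. In glioblastoma the response is known for raising antigen presentation and T-cell-attracting chemokines together with the checkpoint ligand PD-L1 and the tryptophan-degrading enzyme IDO1.

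Each gene was tested with limma on log2(TPM + 1), with the spread estimated from all 15 libraries, and p-values were adjusted by Benjamini-Hochberg over the 23945 genes. A gene is said to have risen or fallen when its adjusted p was under 0.05, and it was called when its log2 fold change was also beyond 1 in size. At this stricter limit 782 genes (3.27%) were higher and 810 genes (3.38%) were lower at D14. By the adjusted p alone 3096 genes (12.9%) rose and 3068 (12.8%) fell. With the spread estimated from the 6 libraries alone, 2121 rose and 2041 fell. The median log2 fold change of all genes was -0.02, with quartiles of -0.33 and 0.29, and 8918 genes had an unadjusted p under 0.05. Of the genes matched by symbol in GENCODE, protein-coding genes made up 63.2% of 23684 tested, 64.4% of 779 called higher and 60% of 798 called lower. The share of genes that passed the adjusted p was 6.98% between 0.5 and 1 TPM and 38.4% at 100 TPM or more, while the share called was 3.49% and 1.79% at these levels and highest, at 13.7%, between 5 and 20 TPM. In bulk RNA, fewer cells expressing a gene and less RNA per cell cannot be told apart, for any gene.

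**Figure D1:**
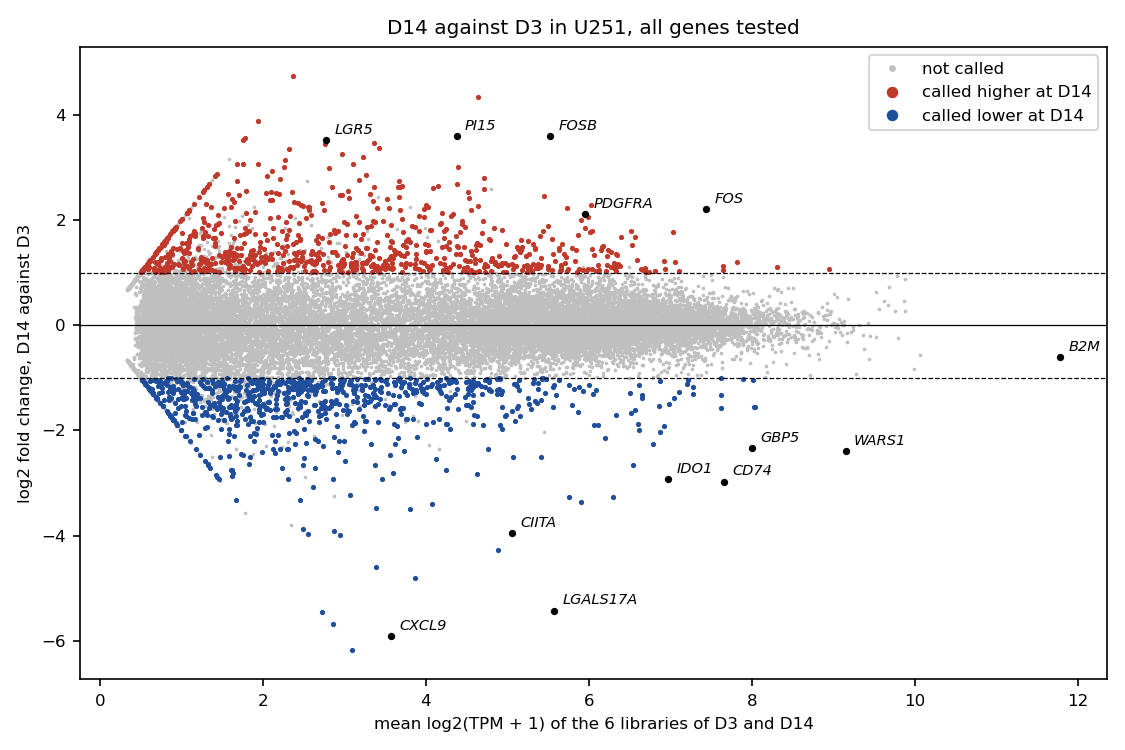
Log2 fold change at D14 against D3 for the 23945 genes tested, against the mean log2(TPM + 1) of the 6 libraries, with grey points for genes not called and dashed lines at 1 and -1. The 782 genes called higher are red and the 810 called lower are blue, and the genes named beside black points include CXCL9 at -5.91 and FOSB at 3.59.

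The receptor and its kinases did not all move the same way. JAK2, the kinase bound to IFNGR2, had 54.8, 63.4 and 60.4 TPM at D3 and 14, 15.8 and 13.4 TPM at D14. All D14 libraries lay below all D3 libraries, and JAK2 fell with a log2 fold change of -1.98 (SE 0.19, limma adjusted p = 6.20e-06). Its Untreated level was 9.93 ± 4.07 TPM (SD, n = 3), so D14 lay nearer to the Untreated cells than to D3. The receptor chain IFNGR2 moved the other way, with 57.4, 64.2 and 59.2 TPM at D3 and 80.6, 94.7 and 87.8 TPM at D14. No library overlapped, and IFNGR2 rose with a log2 fold change of 0.53 (SE 0.0723, limma adjusted p = 1.22e-04). STAT2, a part of an ISRE-binding complex, fell by less than JAK2, with a log2 fold change of -0.49. Of the 13 receptor, kinase and STAT genes, 2 rose and 3 fell, and their median was -0.18, or -0.11 without D14 replicate 1, beside -0.02 for all genes. The falls include IFNGR1, at a log2 fold change of -0.26, which did not pass without D14 replicate 1, 2 or 3 or D3 replicate 1, with values of -0.28, -0.24, -0.25 and -0.19.

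Of the 8 genes of the IRF family that were tested, none rose and 2 fell. IRF2, which often represses the sites that IRF1 activates, had a log2 fold change of -0.39 and did not pass without D14 replicate 1 or D3 replicate 1 or 2, at -0.33, -0.33 and -0.29. IRF1, located at chr5:132440440-132508719 on the minus strand (GRCh38), had 514, 721 and 533 TPM at D3 and 288, 321 and 292 TPM at D14. The groups were far apart, and IRF1 fell with a log2 fold change of -0.95 (SE 0.11, limma adjusted p = 2.68e-05). It was still above its Untreated level of 141 ± 3.9 TPM (SD, n = 3), and at D28 it was 603 ± 61.6 TPM (SD, n = 3). Of 14 feedback regulators, only SOCS1 fell and 5 rose. SOCS1, the inhibitor of the JAK kinases, had 32.5, 39.3 and 35.5 TPM at D3 and 11.5, 9.13 and 6.94 TPM at D14, with no overlap. SOCS1 fell with a log2 fold change of -1.87 (SE 0.14, limma adjusted p = 6.45e-07), and its Untreated level was 2.82 ± 0.0296 TPM (SD, n = 3). Its relative SOCS3, which restrains cytokine receptors of the IL-6 type, rose from a mean of 44.5 to 65.9 TPM, with a log2 fold change of 0.56. USP18, which limits type I interferon signalling, had 65.6, 62.5 and 70.8 TPM at D3 and 70.7, 62.7 and 67.2 TPM at D14. These groups overlapped, and the log2 fold change of USP18 was 0.01.

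CIITA stands at chr16:10866222-10943021 on the plus strand and acts only through factors already bound at class II promoters. CIITA had 137, 126 and 128 TPM at D3 and 8.1, 7.48 and 6.86 TPM at D14. Every D14 library was under 10 TPM and every D3 library over 100 TPM, and CIITA fell with a log2 fold change of -3.96 (SE 0.14, limma adjusted p = 9.26e-10). Its Untreated level was 1.88 ± 0.727 TPM (SD, n = 3), and at D28 it was back at 131 ± 7.57 TPM (SD, n = 3). In D28WO cells, which were kept without IFN-γ after day 14, CIITA had 109, 101 and 95.9 TPM, also far above D14. CD74, the invariant chain that guards the class II groove, had 469, 711 and 540.1 TPM at D3 and 70.3, 75.9 and 67.4 TPM at D14, without overlap. CD74 fell with a log2 fold change of -2.97 (SE 0.21, limma adjusted p = 3.50e-07), while its Untreated level was 1.62 ± 1.09 TPM (SD, n = 3). HLA-DRA, the α chain of HLA-DR, was listed at 0 in the Untreated libraries and had 201, 293 and 238 TPM at D3 and 44.8, 53.7 and 50.4 TPM at D14. D3 and D14 were fully apart, and HLA-DRA fell with a log2 fold change of -2.26 (SE 0.11, limma adjusted p = 1.02e-08). HLA-DOA, a chain of the modulator HLA-DO, moved furthest of the class II genes, with 122, 188 and 93.1 TPM at D3 and 7.67, 2.77 and 8.21 TPM at D14, all D14 libraries lying lower. Its log2 fold change of -4.27 (SE 0.30, limma adjusted p = 3.24e-07) placed it among the 15 largest falls. Of the 21 genes of this list, 16 fell, none rose and 15 were called lower, and the median was -1.91. The DNA-binding factor RFX5 fell by less, with a log2 fold change of -0.48. At D14, 14 of the 21 still passed as higher than Untreated, against 14.0% of all genes, in a comparison that shares the D14 libraries. Reads of the near-identical HLA genes can be assigned to the wrong member, so single HLA values are less certain than the list.

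The promoters of a pair of class II genes are shown because 6 of the 12 promoters of HLA class II chains found in the RefSeq table (50%) held the letters CTGATTGG, the Y box, on either strand, as did 7 of 18 in the list with CD74 and the RFX and NFY factors (38.9%), against 3.98% of all 27305 promoters and 5.26% of those of genes tested. The letters are not particular to class II, as 30.8% of promoters of the class I and peptide loading list, 26.1% of those of the cholesterol and fatty acid list and 23.8% of those of the G2 and mitosis list held them. The window is the 250 bases before the start that RefSeq gives the gene in the reference sequence (GRCh38.p14), not read from these cells, and capitals mark the Y box. Gene positions are the spans of GENCODE, which reach past the RefSeq start in some genes, so the windows of HLA-DQB1, IRF1, IFI44L and PLK1 lie inside these spans and that of ICAM1 in part. HLA-DRB1 is at chr6:32589849-32590098 on the minus strand and HLA-DQB1 at chr6:32666658-32666907 on the minus strand. A match describes the letters and does not show binding. HLA-DRB1 fell from a mean of 236 to 57.2 TPM and HLA-DQB1 from 48.9 to 6.53 TPM, with log2 fold changes of -2.02 and -2.76.
HLA-DRB1: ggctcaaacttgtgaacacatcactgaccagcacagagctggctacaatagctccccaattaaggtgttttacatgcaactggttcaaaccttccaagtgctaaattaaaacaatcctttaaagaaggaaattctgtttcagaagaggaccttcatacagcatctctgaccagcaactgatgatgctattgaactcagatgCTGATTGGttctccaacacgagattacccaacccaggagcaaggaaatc
HLA-DQB1: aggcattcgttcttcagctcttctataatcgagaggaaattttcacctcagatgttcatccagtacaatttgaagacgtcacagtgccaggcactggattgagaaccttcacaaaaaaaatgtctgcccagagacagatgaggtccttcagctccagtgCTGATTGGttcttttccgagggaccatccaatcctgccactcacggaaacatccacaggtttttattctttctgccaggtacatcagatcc

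Class I genes fell by less than class II genes did, a difference that was not tested. B2M, the light chain of every class I molecule and the most abundant gene in each of the 6 libraries, had 4383, 4215 and 4424 TPM at D3 and 2879, 2779 and 2887 TPM at D14. All D14 values lay below all D3 values and above the Untreated level of 1696 ± 43 TPM (SD, n = 3). B2M fell with a log2 fold change of -0.61 (SE 0.0458, limma adjusted p = 6.45e-07). HLA-B, a classical heavy chain, went from a mean of 1361 to 764 TPM, with a log2 fold change of -0.83. TAP1, a subunit of the transporter that brings peptides to class I, had 380.3, 416 and 409.6 TPM at D3 and 195, 209.5 and 207 TPM at D14. These groups did not overlap, and TAP1 fell with a log2 fold change of -0.98 (SE 0.0533, limma adjusted p = 3.80e-08). NLRC5, the counterpart of CIITA for class I, had a log2 fold change of -0.65. Of the 17 genes for class I and peptide loading, 13 fell and 1 rose, with a median of -0.63. The chaperone CALR was the 1 that rose, by a log2 fold change of 0.35, and it did not pass in a fit of the 6 libraries alone (limma adjusted p = 0.0575). All 5 immunoproteasome genes fell, with a median of -0.53. The catalytic subunit PSMB9 had 243, 264 and 251.2 TPM at D3 and 147, 157 and 160.4 TPM at D14, without overlap. It fell with a log2 fold change of -0.71 (SE 0.0522, limma adjusted p = 5.59e-07). PSMB8, another catalytic subunit, had a log2 fold change of -0.21 and did not pass without D14 replicate 1, at -0.17. Among 31 genes of the constitutive proteasome 13 rose and 1 fell, with a median of 0.15, and 8, 7 and 7 rose without D14 replicate 2, D14 replicate 3 and D3 replicate 1. CTSS, the lysosomal protease that trims the invariant chain, had 186, 195 and 212 TPM at D3 and 61.4, 68.3 and 72.6 TPM at D14. The D3 libraries were all higher, and CTSS fell with a log2 fold change of -1.54 (SE 0.0808, limma adjusted p = 2.44e-08). It was the only gene called among 12 of lysosomal class II processing, of which 5 fell, or 3 in the fit of the 6 libraries alone, and 1 rose, with a median of -0.18. Of the 215 genes tested in the HLA region of chromosome 6, 26 were called lower (12.1%) and 3 higher. Of all genes tested, 3.38% were called lower and 3.27% higher. The region holds HLA genes already counted in the lists above, such as HLA-DOA, so its count is not separate from theirs.

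CXCR3 is the chemokine receptor of activated T cells, and its ligands held the largest fall among the genes eligible to be named by rank. CXCL9, at chr4:76001275-76007509 on the minus strand, had 61.1, 128 and 95.2 TPM at D3 and 0.358, 0.392 and 0.894 TPM at D14. Every D14 library was under 1 TPM, no library overlapped, and CXCL9 fell with a log2 fold change of -5.91 (SE 0.22, limma adjusted p = 1.02e-09). In Untreated cells it was 0.0276 ± 0.0479 TPM (SD, n = 3), and at D28 it was 187 ± 14.5 TPM (SD, n = 3). Because its D14 values lie under 1 TPM, the pseudocount of 1 makes the log2 fold change of CXCL9 smaller in size than that of the TPM. CXCL10 had 178, 287 and 252 TPM at D3 and 35.5, 36.4 and 36.5 TPM at D14, which puts all D14 libraries lower. CXCL10 fell with a log2 fold change of -2.67 (SE 0.18, limma adjusted p = 2.84e-07) and at D14 was above its Untreated level of 0.203 ± 0.351 TPM (SD, n = 3). CXCL11, the ligand of highest affinity, had 199, 292 and 248 TPM at D3 and 19.4, 27.1 and 27.7 TPM at D14. There was no overlap, and CXCL11 fell with a log2 fold change of -3.26 (SE 0.21, limma adjusted p = 1.44e-07). At D28 the level of CXCL10 was 504 ± 15.5 TPM (SD, n = 3) and that of CXCL11 was 448 ± 40.3 TPM (SD, n = 3), both above D3.

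The promoters of CXCL9 and CXCL10 are shown with the ISRE core, which is GAAA, 2 bases of any kind and GAAA on either strand, in capitals. This core was in 3.07% of all promoters, in 2.52% of those of genes tested and in 5.29% of those of genes called lower. The GAS element, TTCNNNGAA, was in 6.78% of all promoters and 8.82% of those of genes called lower. CXCL9 is at chr4:76007510-76007759 on the minus strand and CXCL10 at chr4:76023498-76023747 on the minus strand.
CXCL9: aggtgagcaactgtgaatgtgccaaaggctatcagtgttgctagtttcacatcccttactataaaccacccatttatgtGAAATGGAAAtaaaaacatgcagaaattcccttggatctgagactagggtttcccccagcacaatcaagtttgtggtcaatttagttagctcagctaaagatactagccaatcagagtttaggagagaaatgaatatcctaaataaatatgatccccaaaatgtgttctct
CXCL10: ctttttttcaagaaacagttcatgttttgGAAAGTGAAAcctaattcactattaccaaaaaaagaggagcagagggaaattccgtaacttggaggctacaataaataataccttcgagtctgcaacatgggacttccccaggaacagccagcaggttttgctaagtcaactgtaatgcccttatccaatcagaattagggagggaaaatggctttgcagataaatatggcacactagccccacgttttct

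The GAS letters are shown in the promoters of IRF1 and of the adhesion molecule ICAM1, which binds leukocyte integrins, since both genes fell and both hold a match. ICAM1 had 155, 162 and 145 TPM at D3 and 33.5, 39.5 and 29.4 TPM at D14. All D14 libraries were lower, and ICAM1 fell with a log2 fold change of -2.15 (SE 0.12, limma adjusted p = 4.46e-08), and its Untreated level was 6.74 ± 1.24 TPM (SD, n = 3). Capitals mark the GAS match. IRF1 is at chr5:132490774-132491023 on the minus strand and ICAM1 at chr19:10270870-10271119 on the plus strand.
IRF1: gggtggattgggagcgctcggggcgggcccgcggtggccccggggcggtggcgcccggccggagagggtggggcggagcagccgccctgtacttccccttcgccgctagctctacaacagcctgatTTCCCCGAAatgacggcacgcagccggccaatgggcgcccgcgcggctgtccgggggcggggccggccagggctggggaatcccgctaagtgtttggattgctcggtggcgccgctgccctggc
ICAM1: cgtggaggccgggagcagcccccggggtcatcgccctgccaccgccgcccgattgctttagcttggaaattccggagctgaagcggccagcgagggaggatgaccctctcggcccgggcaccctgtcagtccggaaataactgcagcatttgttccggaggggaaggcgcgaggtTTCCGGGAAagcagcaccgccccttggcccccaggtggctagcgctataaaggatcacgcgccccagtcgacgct

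Checkpoint ligands bind receptors that restrain or stimulate T cells, and the breakdown of tryptophan starves T cells of it. CD274, which encodes PD-L1, had 122, 150.3 and 127 TPM at D3 and 34.4, 34.1 and 36.6 TPM at D14. The groups did not overlap, and CD274 fell with a log2 fold change of -1.89 (SE 0.14, limma adjusted p = 4.94e-07). At D14 it was close to its Untreated level of 29.4 ± 7.88 TPM (SD, n = 3). PDCD1LG2, the other ligand of PD-1, went from a mean of 56.8 to 14.6 TPM with a log2 fold change of -1.89. TNFSF4, the OX40 ligand, which stimulates T cells, had 21, 18.5 and 18.5 TPM at D3 and 39.6, 44.8 and 51.1 TPM at D14, without overlap. TNFSF4 rose with a log2 fold change of 1.18 (SE 0.12, limma adjusted p = 9.50e-06). Of the 14 checkpoint genes tested, 5 fell and 2 rose, and the rise of CD276, the ligand B7-H3, had a log2 fold change of 0.34 and did not pass without D14 replicate 1, at 0.27. IDO1, the first enzyme of tryptophan breakdown, had 318, 380.3 and 340.5 TPM at D3 and 46.7, 36 and 52.6 TPM at D14. D14 was far below D3 in every library, and IDO1 fell with a log2 fold change of -2.93 (SE 0.11, limma adjusted p = 9.26e-10), still above its Untreated level of 7.97 ± 0.371 TPM (SD, n = 3). WARS1, which loads tryptophan on its transfer RNA, had 1313, 1351 and 1251 TPM at D3 and 219.7, 255 and 267 TPM at D14, also without overlap. WARS1 fell with a log2 fold change of -2.40 (SE 0.07, limma adjusted p = 1.72e-10). Of the 9 tryptophan genes tested 3 fell and 2 rose, namely QPRT, an enzyme of the path to NAD, with a log2 fold change of 1.31, and TDO2, which also starts tryptophan breakdown. TDO2, at 0.82, did not pass without D14 replicate 1 or D3 replicate 1, at 0.65 and 0.70.

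Guanylate-binding proteins are GTPases that attack the vacuoles of intracellular pathogens. GBP5, the most abundant of them, had 511, 700.5 and 526 TPM at D3 and 113, 117 and 108 TPM at D14. The groups were apart, and GBP5 fell with a log2 fold change of -2.34 (SE 0.10, limma adjusted p = 5.36e-09), and its Untreated level was 54.5 ± 5.15 TPM (SD, n = 3). Of the 9 genes tested in this family and its IRG relatives, 7 fell and 1 rose, with a median of -1.31. The 5 apolipoprotein L genes, whose best-known member APOL1 lyses trypanosomes, all fell, with a median of -1.39. APOL4 had 28.6, 38.5 and 22.9 TPM at D3 and 1.78, 3.3 and 4.3 TPM at D14, with all D14 libraries lower, and it fell with a log2 fold change of -2.93 (SE 0.25, limma adjusted p = 1.84e-06). In the complement list, 12 of 16 genes fell and 2 rose, with a median of -0.88. SERPING1, the inhibitor of the C1 proteases, had 172, 218 and 198 TPM at D3 and 47, 45.7 and 52.6 TPM at D14. No libraries overlapped, and SERPING1 fell with a log2 fold change of -1.99 (SE 0.26, limma adjusted p = 8.52e-05). C3, the central component and the most abundant of the list, went from a mean of 343 to 113 TPM with a log2 fold change of -1.58. The genes that rose were CFI, the protease that cuts C3b and C4b, with a log2 fold change of 0.93, and CD59, which blocks the membrane attack complex, with 0.48. CASP5, an inflammatory caspase, had 14.6, 12 and 11.5 TPM at D3 and 2.44, 0.347 and 0.273 TPM at D14, with no overlap. It fell with a log2 fold change of -2.92 (SE 0.37, limma adjusted p = 7.02e-05). Similar sequences among GBP genes and between C4A and C4B leave their single values less certain.

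Antiviral genes answer to factors that bind the ISRE and are shared with the type I interferons. Among 39 genes of the OAS, IFIT, MX and related families 21 fell and 1 rose, with a median of -0.31. The count of rises was 0 without D14 replicate 3 or D3 replicate 1 or 2. At D14, 36 of the 39 passed as higher than Untreated, against 14.0% of all genes, in a comparison that shares the D14 libraries. BST2, which tethers virus particles to the cell, had 144, 164 and 172 TPM at D3 and 176, 188 and 194 TPM at D14. All D14 libraries were higher, but its log2 fold change of 0.22 (SE 0.0857, limma adjusted p = 0.0799) did not pass, and the Untreated level was 17.9 ± 1.78 TPM (SD, n = 3). OAS3, an enzyme that double-stranded RNA activates, had 127, 128 and 138 TPM at D3 and 135, 142 and 154 TPM at D14. The groups overlapped, with a log2 fold change of 0.13 (limma adjusted p = 0.168), and its Untreated level was 20.9 ± 1.4 TPM (SD, n = 3). IFI44L, an interferon-induced gene, had 221, 219 and 225 TPM at D3 and 209, 207 and 197 TPM at D14. The groups did not overlap, but its log2 fold change of -0.12 (SE 0.12, limma adjusted p = 0.523) did not pass, and its Untreated level was 13.3 ± 3.21 TPM (SD, n = 3). MX1, a GTPase against RNA viruses, had a log2 fold change of -0.08 with a limma adjusted p = 0.699. ISG20, an exonuclease that degrades RNA, moved furthest in the list, with 57.3, 77.8 and 75.1 TPM at D3 and 37.2, 26.6 and 29.9 TPM at D14 and no overlap. ISG20 fell with a log2 fold change of -1.14 (SE 0.15, limma adjusted p = 1.21e-04) to about its Untreated level of 29.1 ± 5.37 TPM (SD, n = 3). A p that misses the threshold does not show that the D3 and D14 levels were equal.

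Of 32 antiviral promoters found in the table, 20 held the ISRE core (62.5%). Among the 20 genes with it 10 fell, with a median of -0.31, and among the 12 without it 8 fell, with a median of -0.34. The promoters of BST2 and IFI44L, genes that did not pass at D14, are shown beside those of CXCL9 and CXCL10, which fell, because both pairs hold the same core. Capitals mark 2 matches in each, which overlap in BST2. BST2 is at chr19:17405631-17405880 on the minus strand and IFI44L at chr1:78620198-78620447 on the plus strand.
BST2: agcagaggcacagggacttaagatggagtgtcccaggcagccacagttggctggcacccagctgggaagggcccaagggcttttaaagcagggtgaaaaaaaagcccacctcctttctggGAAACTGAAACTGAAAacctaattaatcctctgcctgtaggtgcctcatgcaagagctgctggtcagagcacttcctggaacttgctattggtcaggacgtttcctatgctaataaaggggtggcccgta
IFI44L: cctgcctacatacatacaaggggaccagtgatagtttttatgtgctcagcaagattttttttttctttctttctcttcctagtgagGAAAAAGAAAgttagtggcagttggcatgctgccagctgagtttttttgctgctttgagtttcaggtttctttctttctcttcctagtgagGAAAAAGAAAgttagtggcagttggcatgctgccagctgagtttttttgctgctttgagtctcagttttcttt

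**Figure D2:**
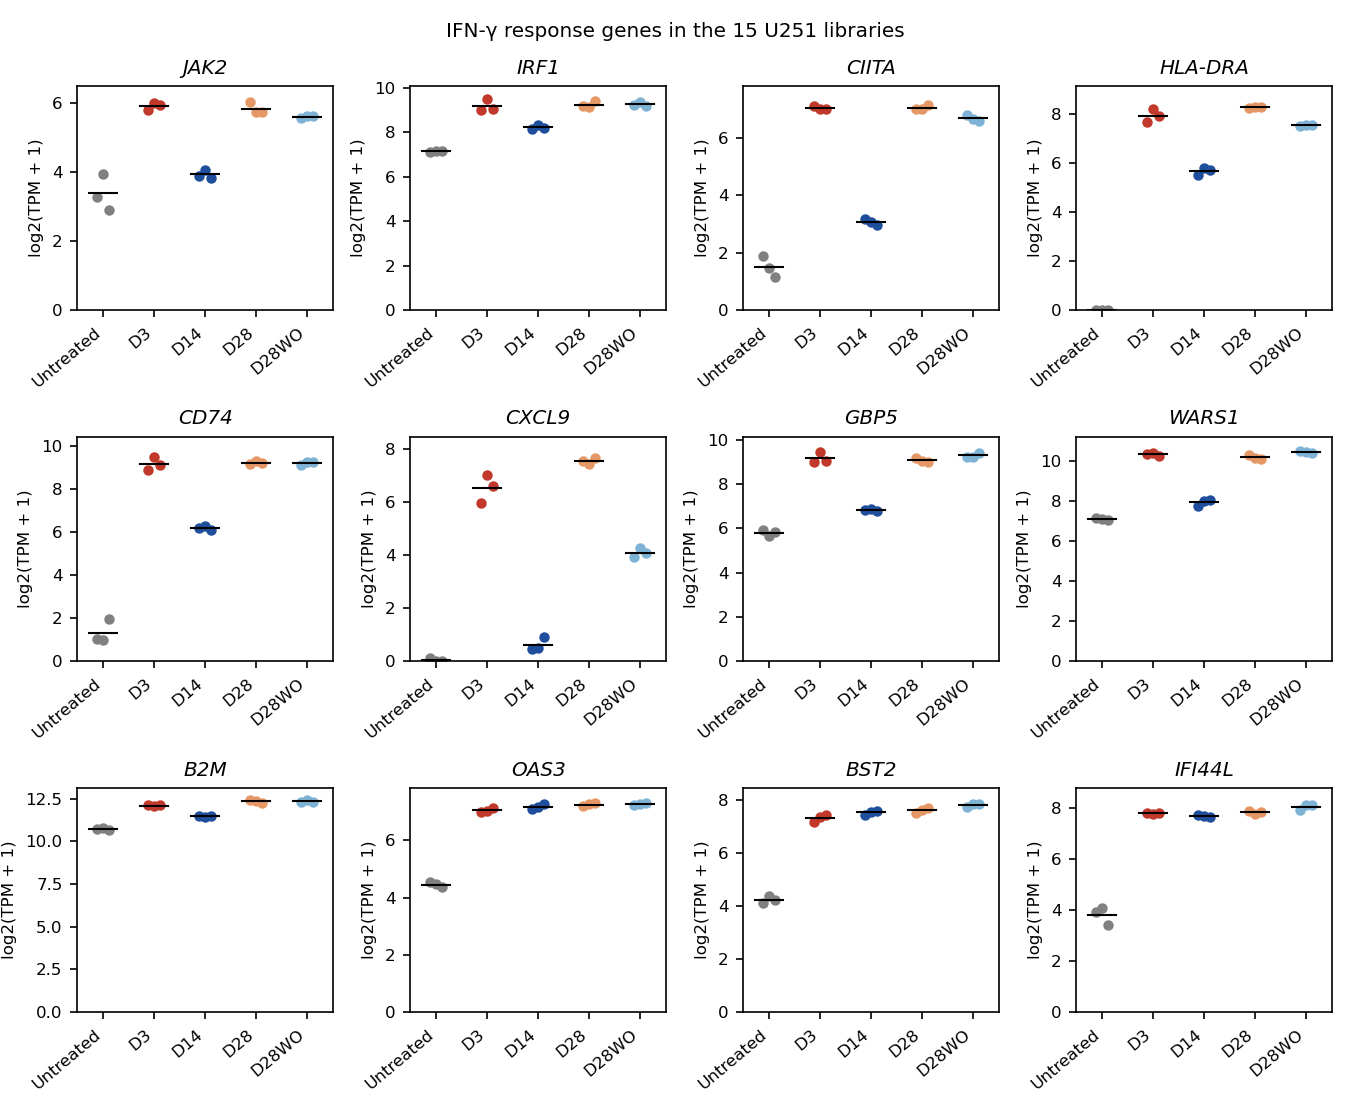
Log2(TPM + 1) of 12 IFN-γ response genes in the 15 U251 libraries, with a point per library and a line at the mean of each group of 3. CIITA, CD74, HLA-DRA, CXCL9, GBP5 and WARS1 are low at D14 between high values at D3 and D28, while OAS3, BST2 and IFI44L stay near their D3 values at D14. At D28WO, without IFN-γ since day 14, CIITA, CD74, HLA-DRA, GBP5 and WARS1 also lie far above D14, and CXCL9 lies between D14 and D3.

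Of 13 genes for the sensing of foreign nucleic acid 7 fell and none rose, with a median of -0.45. The list holds adaptors and regulators beside the sensors themselves. AIM2, which senses DNA and starts the inflammasome, had 8.9, 20 and 18.6 TPM at D3 and 2.9, 6.93 and 4.54 TPM at D14, and no library overlapped. AIM2 fell with a log2 fold change of -1.52 (SE 0.32, limma adjusted p = 0.00341). TLR3, the endosomal receptor for double-stranded RNA, had a log2 fold change of -1.16. Of 5 APOBEC3 genes tested, which encode DNA-editing enzymes against retroviruses, 3 fell. Of 8 PARP genes with DTX3L 3 fell, and of 12 PML, SP100 and TRIM genes, components of nuclear bodies and ubiquitin ligases, 7 fell, with no rise in either list.

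Other large falls were named by rank among the 367 eligible genes. LGALS17A, a long non-coding RNA in GENCODE, had 250.5, 367 and 327 TPM at D3 and 7.21, 3.68 and 9.04 TPM at D14, all D14 libraries lying lower. It fell with a log2 fold change of -5.42 (SE 0.21, limma adjusted p = 1.80e-09). IL18BP, the secreted protein that captures IL-18, had 136, 214 and 158 TPM at D3 and 17.1, 13.8 and 19.1 TPM at D14. D3 was higher in every library, and IL18BP fell with a log2 fold change of -3.26 (SE 0.16, limma adjusted p = 1.15e-08). Also among the 15 largest falls were KLHDC7B, the gap-junction gene GJD3, the galectin LGALS13, the CD7 ligand SECTM1, HLA-DQB2 and HLA-DRB5, with log2 fold changes from -3.98 to -3.22, and LGALS13 was listed at 0 in a D14 library. TNFSF13B, the B-cell survival factor BAFF, had 61.9, 65.7 and 67.2 TPM at D3 and 11.1, 6.89 and 7.25 TPM at D14, again apart, and fell with a log2 fold change of -2.84 (SE 0.19, limma adjusted p = 2.40e-07).

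The rises include immediate early genes, which cells transcribe within minutes of a growth or stress signal. Of 28 tested, 22 rose and 2 fell, with a median of 0.80. FOSB, a subunit of the transcription factor AP-1, had 10, 12.5 and 14.6 TPM at D3 and 185, 175 and 124 TPM at D14. The lowest D14 library was above the highest D3 library, and FOSB rose with a log2 fold change of 3.59 (SE 0.16, limma adjusted p = 5.19e-09). Its Untreated level was 127 ± 16.2 TPM (SD, n = 3), so D3 was the low group. FOS, its close relative, had 58, 96 and 91.1 TPM at D3 and 396, 387 and 332 TPM at D14, without overlap, and its Untreated level was 373 ± 20.5 TPM (SD, n = 3). FOS rose with a log2 fold change of 2.20 (SE 0.15, limma adjusted p = 2.68e-07). EGR1, a zinc-finger factor of the same response, had 56.5, 82.5 and 72.6 TPM at D3 and 254, 255 and 216 TPM at D14. D3 and D14 were fully apart, and EGR1 rose with a log2 fold change of 1.77 (SE 0.11, limma adjusted p = 8.17e-08), towards an Untreated level of 316 ± 5.07 TPM (SD, n = 3). EGR2 and EGR3 rose by 3.45 and 3.35 on the log2 scale. DUSP4, a phosphatase that switches off MAP kinases, moved the other way, with a log2 fold change of -0.55. NR4A3, a nuclear receptor and the other of the 2 that fell, did not pass without D14 replicate 1 or 3 or D3 replicate 1 or 3, at -0.63, -0.66, -0.60 and -0.66.

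Chemokines outside the CXCR3 group were divided. Of 11 tested, 5 rose, all called, and 3 fell. CXCL8, which attracts neutrophils, had 45.9, 55.2 and 59.8 TPM at D3 and 143, 172 and 153 TPM at D14. All D14 libraries were higher, and CXCL8 rose with a log2 fold change of 1.53 (SE 0.11, limma adjusted p = 4.37e-07), beyond the Untreated level of 31.6 ± 3.21 TPM (SD, n = 3). CCL2, which attracts monocytes, had 14.7, 26.4 and 20 TPM at D3 and 54.9, 59.3 and 57.1 TPM at D14, again without overlap. CCL2 rose with a log2 fold change of 1.48 (SE 0.18, limma adjusted p = 4.54e-05). CXCL2 and CXCL3 rose by 1.85 and 1.36 on the log2 scale. CCL8 went the other way, with 2.83, 12.5 and 8.5 TPM at D3 and 0.61, 0 and 0 TPM at D14, no overlap and no reading in Untreated cells above 0. It fell (limma adjusted p = 1.17e-04), and no fold change is given because of the values of 0. The median of these 11 genes was 1.07, and 0.63 without D3 replicate 1. Of 21 NF-κB subunits and targets 10 rose and 3 fell, the latter being ICAM1, VCAM1 and SOD2. Of 18 cytokines 6 rose and 6 fell. LIF, a cytokine of the IL-6 family, had 4.62, 4.24 and 4.53 TPM at D3 and 29.5, 28.7 and 27.7 TPM at D14, with every D14 library higher. LIF rose with a log2 fold change of 2.44 (SE 0.21, limma adjusted p = 1.75e-06), and its Untreated level was 24.8 ± 4.51 TPM (SD, n = 3). IL11, of the same family, fell from a mean of 162 to 61.7 TPM with a log2 fold change of -1.39.

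The cell-cycle lists follow the order of G2 and mitosis, S phase and G1. Of 50 genes for G2 and mitosis 41 rose and none fell, with a median of 0.60 beside -0.02 for all genes. KIF20A, a kinesin needed to finish cell division, had 26.9, 22.2 and 21.9 TPM at D3 and 106, 123 and 114 TPM at D14. The groups were far apart, and KIF20A rose with a log2 fold change of 2.23 (SE 0.0901, limma adjusted p = 2.21e-09), above its Untreated level of 68.5 ± 6.6 TPM (SD, n = 3). CCNB1, the cyclin that drives entry into mitosis, had 145, 102 and 145 TPM at D3 and 231, 255 and 263 TPM at D14, without overlap. CCNB1 rose with a log2 fold change of 0.95 (SE 0.12, limma adjusted p = 6.53e-05). PRC1, which bundles microtubules in the dividing cell and was the most abundant of the list, went from a mean of 179 to 250.4 TPM with a log2 fold change of 0.48. At D14, 46 of the 50 passed as higher than Untreated, against 14.0% of all genes. Of 41 genes for S phase 18 rose and 1 fell, with a median of 0.28. The fall, of DTL, which guides the removal of licensing factors, did not pass without D14 replicate 1 or 2 or D3 replicate 1 or 2, at -0.47, -0.31, -0.42 and -0.39. Of 16 G1 genes 8 rose and 2 fell. CCNE1, the cyclin of entry into S phase, rose by 1.35 on the log2 scale, and CCND1, the cyclin that answers to growth factors, had a log2 fold change of -0.83. The cell-cycle inhibitor CDKN1A also rose, with 52.1, 51.6 and 51 TPM at D3 and 93.7, 97.3 and 102 TPM at D14, no overlap and a log2 fold change of 0.91 (SE 0.089, limma adjusted p = 7.03e-06).

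The letters TTTGAA, the core of the element called CHR in late cell-cycle promoters, were on either strand of 22 of 42 promoters of the G2 and mitosis list (52.4%), against 13.6% of all promoters, 9.33% of those of genes tested and 33.3% of those of the class II list. They are shown in capitals for PLK1, the mitotic kinase, and GTSE1, which binds microtubules in mitosis, because both genes rose and hold the element close to the start. In GTSE1 the match is on the other strand and reads TTCAAA. PLK1 rose from a mean of 46.5 to 96.4 TPM and GTSE1 from 20.6 to 59.8 TPM, with log2 fold changes of 1.03 and 1.49. PLK1 is at chr16:23678639-23678888 on the plus strand and GTSE1 at chr22:46296620-46296869 on the plus strand.
PLK1: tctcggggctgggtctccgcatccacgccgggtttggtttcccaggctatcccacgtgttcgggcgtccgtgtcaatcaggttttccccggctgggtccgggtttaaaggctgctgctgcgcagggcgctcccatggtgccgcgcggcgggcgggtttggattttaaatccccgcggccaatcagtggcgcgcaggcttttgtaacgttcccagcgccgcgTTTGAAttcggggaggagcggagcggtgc
GTSE1: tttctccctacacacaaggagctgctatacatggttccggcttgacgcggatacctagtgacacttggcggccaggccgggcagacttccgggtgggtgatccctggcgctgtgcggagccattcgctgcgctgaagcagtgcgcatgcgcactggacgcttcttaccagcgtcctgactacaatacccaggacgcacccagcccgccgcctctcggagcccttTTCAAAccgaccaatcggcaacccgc

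Most genes of lipid synthesis rose. Of 30 genes for cholesterol and fatty acids 20 rose and none fell, with a median of 0.47. None passed as higher than Untreated at D14, against 14.0% of all genes. FADS2, a desaturase of fatty acids, had 23.7, 21.3 and 18 TPM at D3 and 63.9, 61.4 and 70 TPM at D14, with all D14 libraries higher. FADS2 rose with a log2 fold change of 1.59 (SE 0.0979, limma adjusted p = 9.90e-08), towards its Untreated level of 122 ± 6.39 TPM (SD, n = 3). In the list of the unfolded protein and ATF4 response 17 of 31 genes fell and 6 rose, with a median of -0.33. ASNS, which makes asparagine and is a target of ATF4, had 307, 311 and 312 TPM at D3 and 119, 116 and 136 TPM at D14. D3 was higher in every library, and ASNS fell with a log2 fold change of -1.32 (SE 0.099, limma adjusted p = 6.01e-07), to near its Untreated level of 100.1 ± 11.1 TPM (SD, n = 3). PSAT1, of serine synthesis, and CHAC1, which breaks down glutathione, had log2 fold changes of -1.51 and -1.33. The chaperone partners SDF2L1 and CRELD2 in the endoplasmic reticulum rose instead, by 1.07 and 1.00 on the log2 scale.

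Genes of the extracellular matrix and of glial identity were among those low at D3. Of 28 collagen chains 16 rose and 2 fell, with a median of 0.42. COL11A1, a fibril-forming chain, had 57, 54.9 and 45.4 TPM at D3 and 168, 180.3 and 158 TPM at D14. All D14 libraries were higher, and COL11A1 rose with a log2 fold change of 1.67 (SE 0.0879, limma adjusted p = 2.44e-08), from D3 towards an Untreated level of 238 ± 9.86 TPM (SD, n = 3). COL6A2, the most abundant chain, fell, with a log2 fold change of -0.77. Of 32 metalloproteases and inhibitors 17 rose and 1 fell, with a median of 0.43. ADAMTS7, which degrades the matrix protein COMP, had 5.68, 6.63 and 5.47 TPM at D3 and 52.4, 43.5 and 30.5 TPM at D14, without overlap. ADAMTS7 rose with a log2 fold change of 2.61 (SE 0.15, limma adjusted p = 7.09e-08). Of 30 integrins and laminins 13 rose and none fell, led by ITGA9, an integrin chain that binds tenascin-C, at 1.76. GFAP, the intermediate filament of astrocytes, had 299.5, 365 and 361 TPM at D3 and 809.9, 703 and 627 TPM at D14. The groups did not overlap, and GFAP rose with a log2 fold change of 1.06 (SE 0.0912, limma adjusted p = 2.24e-06), still below its Untreated level of 1258 ± 46.3 TPM (SD, n = 3). S100B, a calcium-binding protein of astrocytes, and PTPRZ1, a glial phosphatase, rose by 1.51 and 1.54 on the log2 scale. Of 22 neural and glial genes tested 10 rose and 1 fell, the latter being the transcription factor PAX6 with -0.64.

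PDGFRA, the receptor for platelet-derived growth factor, was the receptor tyrosine kinase that moved furthest of 26 tested, with 30.6, 25.9 and 30.3 TPM at D3 and 132, 132 and 120.2 TPM at D14. No library overlapped, and PDGFRA rose with a log2 fold change of 2.11 (SE 0.0801, limma adjusted p = 1.16e-09), from D3 towards an Untreated level of 213 ± 10.7 TPM (SD, n = 3). Of the 26, 11 rose and 2 fell, with a median of 0.26. The falls, of EPHA4 and AXL, were 0 in number without D14 replicate 1 and 1 without any other single library. Neither EPHA4 nor AXL passed in the fit of the 6 libraries alone (limma adjusted p = 0.0622 and 0.122). PDGFRA is also a fibroblast marker, and these markers summed to 275 to 328 TPM at D3 and 575 to 636 TPM at D14, with THY1 the most abundant and LUM listed at 0. Endothelial markers summed to 13.9 to 15.8 TPM and 30.7 to 44.1 TPM, led by KDR, with PECAM1 under 1 TPM in all 6 libraries, and CDH5 among the 15 largest rises. Neuron markers summed to 37.5 to 52.6 TPM and 40.9 to 63.2 TPM, led by SYT1. Oligodendrocyte markers summed to 34.2 to 40.1 TPM and 39.4 to 53.1 TPM, led by MBP. The part of any other cell type in the results was not tested.

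**Figure D3:**
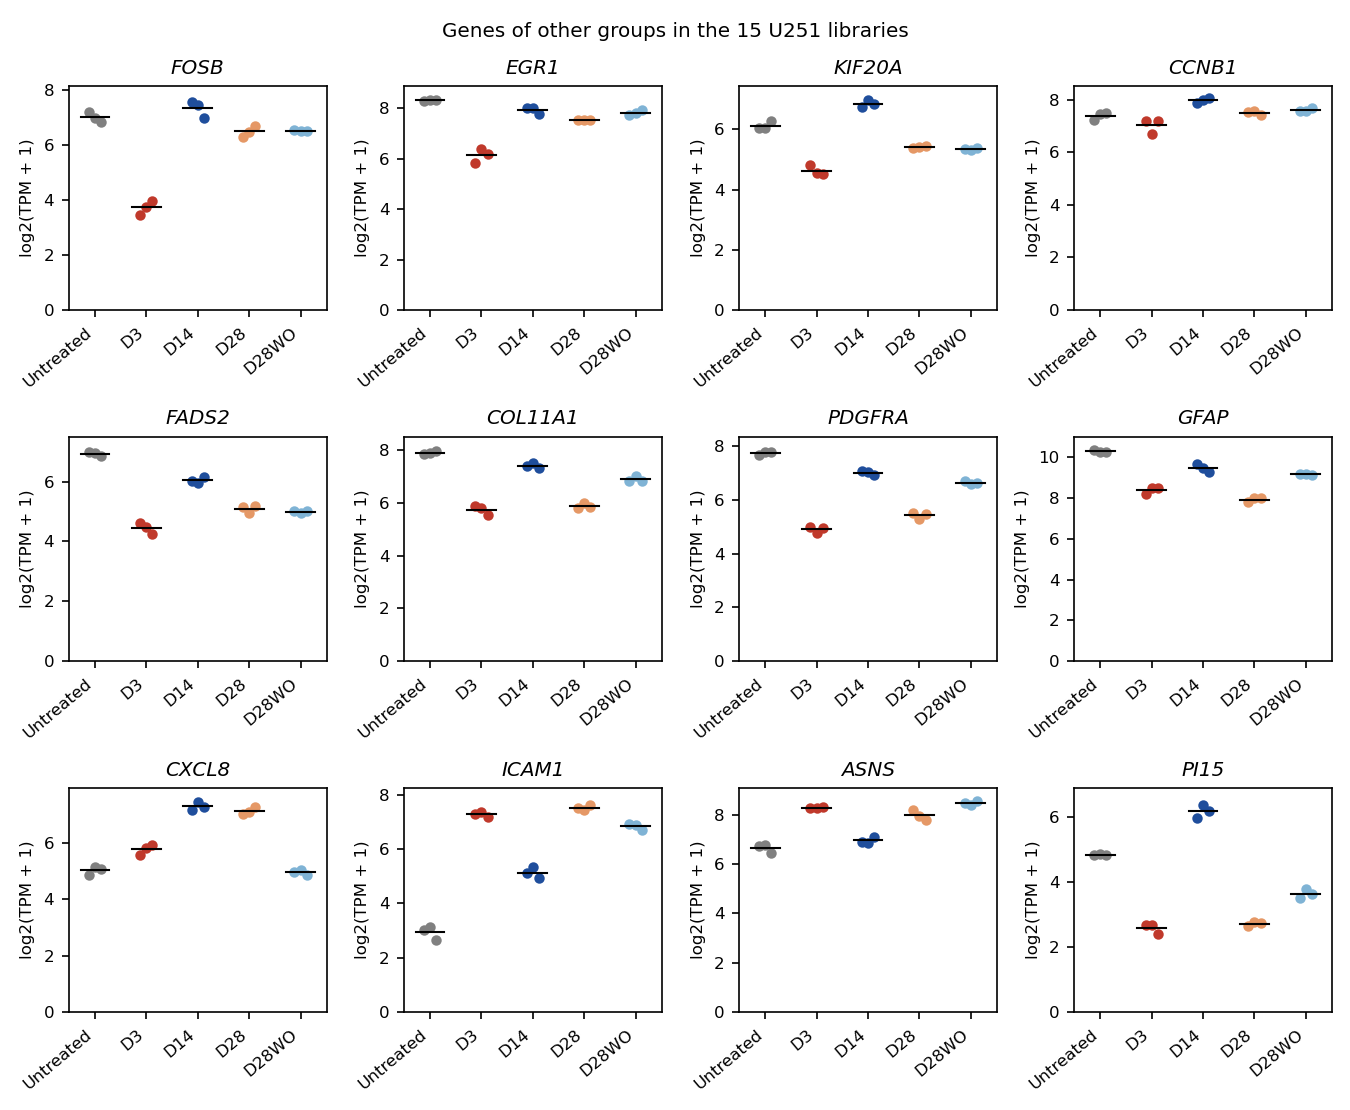
Log2(TPM + 1) of 12 genes of other groups in the 15 U251 libraries, with a point per library and a line at the mean of each group of 3. FOSB, EGR1, KIF20A, FADS2, COL11A1, PDGFRA and GFAP have lower values at D3 than in Untreated and D14 cells, while ICAM1 and ASNS are high at D3.

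PI15, a secreted protease inhibitor, had 5.42, 5.41 and 4.26 TPM at D3 and 62, 81.2 and 71.1 TPM at D14. All D14 libraries were more than 10 times any D3 library, and PI15 rose with a log2 fold change of 3.58 (SE 0.13, limma adjusted p = 9.26e-10). LGR5, a receptor for R-spondins in the WNT pathway, had 0.87, 1.21 and 1.03 TPM at D3 and 21.7, 19.3 and 25.8 TPM at D14, without overlap, and rose with a log2 fold change of 3.51 (SE 0.22, limma adjusted p = 1.18e-07). MT3, a metallothionein of the brain, had 7.09, 1.29 and 1.0 TPM at D3 and 53.7, 26.8 and 25.6 TPM at D14. It was higher in all D14 libraries and rose with a log2 fold change of 3.36 (SE 0.42, limma adjusted p = 6.07e-05), while its Untreated level was 116 ± 5.75 TPM (SD, n = 3). The other large rises were CD180, EHF, KRT13, TM4SF18, CITED1, SEMA6B, LAPTM5 and CDH5, with log2 fold changes between 2.93 and 3.24, and KRT13 and TM4SF18 were listed at 0 in D3 libraries. The largest fitted rise among the 414 eligible genes was that of the histone gene H2AC19, with 75.2, 0.523 and 0.459 TPM at D3 and 112, 109 and 111 TPM at D14. D3 replicate 1 stood with the D14 libraries and apart from its own group, and H2AC19 had a log2 fold change of 4.33 (SE 1.49, limma adjusted p = 0.0466). Without D14 replicate 1, 2 or 3, or D3 replicate 2 or 3, it did not pass, with log2 fold changes of 4.33, 4.34, 4.33, 3.40 and 3.37. Nor did it pass with the replicate number as a block (limma adjusted p = 0.0592). The same held for the fit of the 6 libraries alone, array weights and no filter. H2AC18 is a near-identical copy and had 0.00108, 68.9 and 95.8 TPM at D3 and 1.34, 0.0894 and 1.53e-04 TPM at D14, so that reads of this pair may have been assigned to either gene. Of 57 replication-dependent histone genes tested 15 rose and 2 fell, or 1 fell without D14 replicate 3 or D3 replicate 2 or 3, with a median of 0.85.

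**Figure D4:**
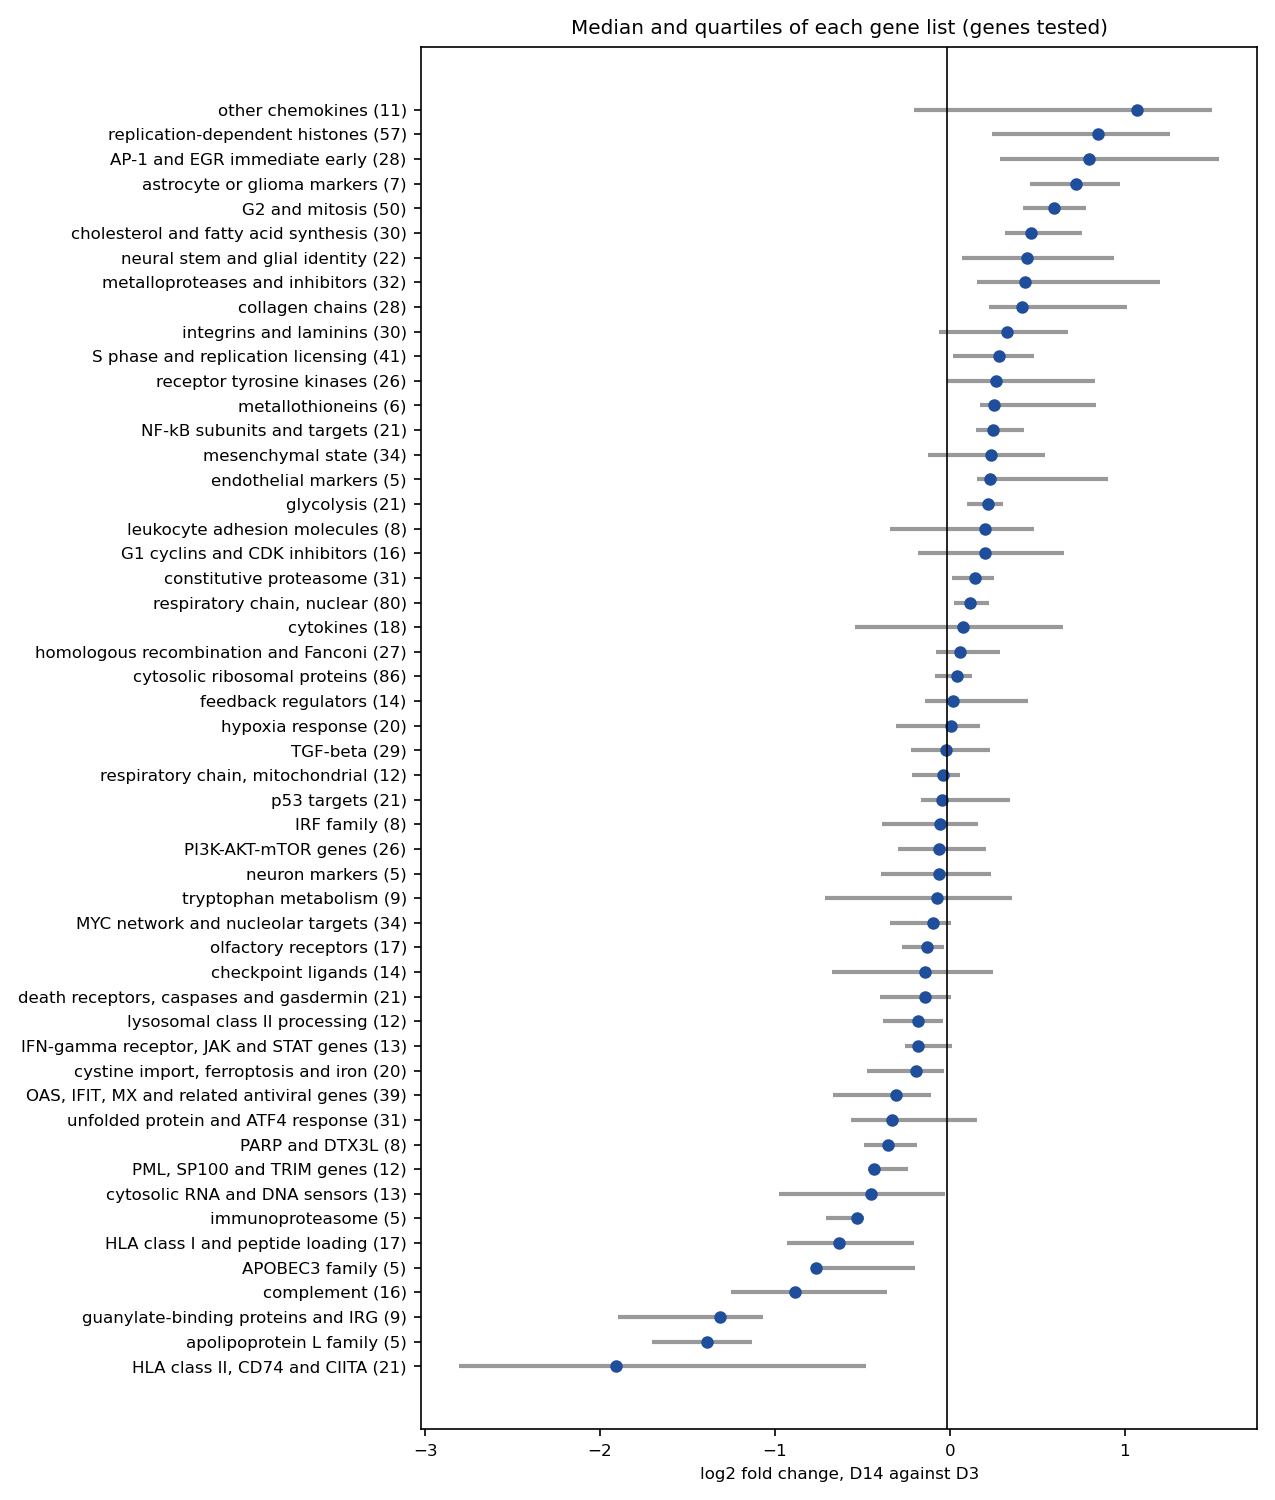
Median (point) and quartiles (bar) of the log2 fold change at D14 against D3 for each list with at least 5 genes tested, whose number is in brackets, with a vertical line at the median of all genes, -0.02. The lists of class II genes at -1.91 and of APOL genes at -1.39 lie lowest, and immediate early genes lie high at 0.80.

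Further lists are given here whatever their medians. Of 86 ribosomal protein genes 14 rose and 8 fell, with a median of 0.04. Of 13 respiratory chain genes of the mitochondrial genome 12 were tested and none of these passed in either direction, with a median of -0.04, while MT-ATP8 was listed at 0 in all 6 libraries. Of 80 symbols of the nuclear respiratory chain, which include the pseudogene ATP5MC1P4, 25 rose, or 14 in the fit of the 6 libraries alone, and 1 fell, with a median of 0.12. Of 21 glycolysis genes 10 rose and 2 fell, with a median of 0.22, and GAPDH, a core enzyme, went from a mean of 597 to 921 TPM with a log2 fold change of 0.64. Of 34 genes of the MYC network 8 fell and 3 rose, with a median of -0.09, and of 26 genes of the PI3K-AKT-mTOR path 6 fell and 4 rose, with a median of -0.06. Of 34 mesenchymal genes 16 rose and 6 fell, with a median of 0.24. TAGLN, an actin-binding protein, fell furthest of these, with 53.4, 32.2 and 44.3 TPM at D3 and 12.7, 10.9 and 13.4 TPM at D14, no overlap and a log2 fold change of -1.71 (SE 0.21, limma adjusted p = 6.10e-05). In the list of homologous recombination 4 of 27 genes rose and 4 fell, or 1 and 2 without D14 replicate 2 or 3, with a median of 0.06. Of 21 death receptor, caspase and gasdermin genes 8 fell and 3 rose, or 4 and none in the fit of the 6 libraries alone, with a median of -0.14. Of 21 p53 targets 4 rose and 4 fell, of 20 hypoxia genes 5 rose and 6 fell, and of 29 TGF-β genes 6 rose and 4 fell, with medians of -0.05, 0.01 and -0.02. In the fit of the 6 libraries alone these counts were 2 and 2, 4 and 5, and 3 and 2. Of 20 genes of cystine import, ferroptosis and iron 7 fell and 2 rose, with a median of -0.20, and FTH1, the ferritin heavy chain, fell from a mean of 1300 to 882 TPM with a log2 fold change of -0.56. None of 17 olfactory receptor genes tested passed in either direction.

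Genes were also chosen by a comparison of D28 with Untreated, among the genes tested. The choice is not independent of the D3 and D14 libraries, which set the filter and share in the estimate of the spread. In it 2718 genes (11.4%) were called higher and 759 (3.17%) lower. Of the 2718 genes higher at D28, 906 fell (33.3%) and 130 rose at D14 against D3, with a median of -0.42. Of the 759 genes lower at D28, 461 rose (60.7%) and 6 fell, with a median of 0.77. Of all genes tested, 12.8% fell and 12.9% rose, with a median of -0.02. With the sets kept as they were and D14 against D3 fitted in its 6 libraries alone, 736 of the first set fell and 382 of the other rose. Conversely, 62.3% of the genes called lower at D14 were in the first set, and 31.8% of those called higher were in the other. WARS1 is an example of the first set, at 138 ± 4.29 TPM (SD, n = 3) in Untreated and 1190 ± 83.4 TPM (SD, n = 3) in D28 cells. PDGFRA is an example of the other, at 213 ± 10.7 TPM (SD, n = 3) in Untreated and 42 ± 3.69 TPM (SD, n = 3) in D28 cells.

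**Figure D5:**
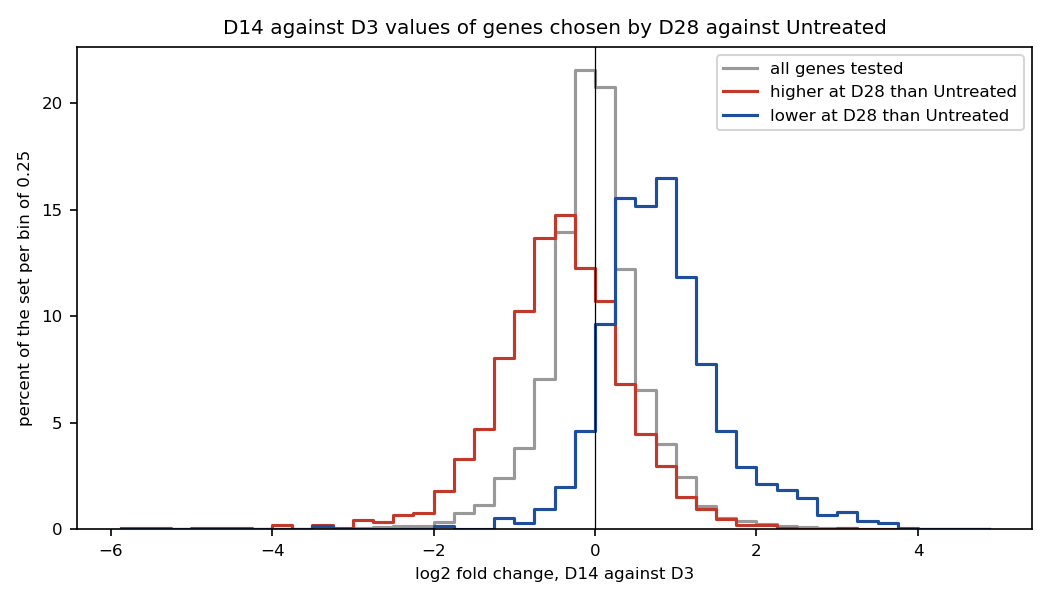
Distribution of the log2 fold change at D14 against D3, as percent per bin of 0.25, for all 23945 genes tested (grey), 2718 genes higher at D28 than Untreated (red) and 759 genes lower (blue). The red curve is shifted below 0, with a median of -0.42, and the blue curve above it, with a median of 0.77.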

How the data were processed

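The authors deposited TPM in 1 table per cell line, and that of U251 holds 15 bulk RNA libraries in 5 groups of 3. Per the study's methods, reads were trimmed, aligned to GRCh38 with STAR and counted with featureCounts, and how TPM was computed is not stated. A supplementary sheet names the matrices CPM, and the values were used as TPM, after the file name. TPM keeps no depth, for which the study's methods state only a minimum per sample. Values were taken as log2(TPM + 1) with a pseudocount of 1. Where a group lies near or under 1 TPM, as for CXCL9 and LGR5, this makes the fold change smaller in size than that of the TPM. Ranks by fold change depend on it too. Genes that averaged 0.5 TPM or more in the 6 libraries compared entered a fit of all 5 groups without other terms, made by lmFit and trended eBayes of limma 3.58.1 (R 4.3.3). The contrasts were D14 with D3, and each of D3, D14 and D28 with Untreated, and p-values were adjusted by Benjamini-Hochberg over the 23945 genes. Tables and figures were made with Python 3.11.15, numpy 2.4.6, pandas 2.3.3 and matplotlib 3.10.9. The steps were also checked on simulated data.

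The members and the gene lists, which were written by hand or by rules on symbols, were chosen with earlier results of these data known. No list was tested. Genes named by rank are the 15 largest rises and 15 largest falls among called genes whose groups did not overlap, whose higher group averaged 5 TPM or more, leaving out clone, LINC, antisense, read-through and pseudogene names. Symbols ending in a digit followed by P, with or without further digits, counted as pseudogene names. In each list, the members with a large change, the most abundant member and those whose role defines it were named, and others named beside them were chosen after their values were seen. Some genes that these rules would name are not reported here. Gene positions come from GENCODE release 44 and promoters from RefSeq, of which 13620 were found by symbol among the genes tested. The promoters of HLA class II chains were counted apart after the data were seen. Alternative settings were no filter, a pseudocount of 0.1, a filter at a mean of 1 TPM, a filter over all 15 libraries, quantile normalization, median-ratio size factors, centring on the median of all genes, a fit of the 6 libraries alone, a replicate block, array weights, leaving out each library and the adjusted p alone. The table of the other cell line was left out, since it was normalized separately.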

Additional observations from a re-analysis of the deposited data

How the results depend on the processing

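The counts of 782 genes called higher and 810 called lower kept within 1.5 times under every alternative that kept both limits, at 670 to 888 higher and 697 to 867 lower. By the adjusted p alone, which drops the limit on the fold change, 3096 were higher and 3068 lower. In the fit of the 6 libraries alone these counts were 2121 and 2041. With the replicate number as a block, 786 were called higher and 805 lower. Deviations from the group mean in D3 and D14 libraries with the same replicate number had correlations of -0.03, 0.02 and 0.02 across genes. The numbers were therefore not used as a pairing. With 1 of the 6 libraries left out, 671 to 791 genes were called higher and 697 to 867 lower. Centring on the median of all genes, chosen after seeing the data, gave 822 higher and 782 lower. No alternative moved the median of all genes by more than 0.1 on the log2 scale. Under quantile normalization B2M had a log2 fold change of 0, because it is the most abundant gene of each of these libraries and is given the same value in each. Of 135 tested genes that the text names, 122 had an adjusted p under 0.05, and 109 of these kept their direction and that limit under every alternative. The fit of the 6 libraries alone lost 12, and leaving out 1 library lost 4 to 10. The 12 were AXL, CALR, CD276, DTL, EPHA4, H2AC19, IFNGR1, IRF2, NR4A3, PML, PSMB8 and TDO2. Array weights lost DTL, EPHA4, H2AC19 and IRF2, and the pseudocount of 0.1 lost NR4A3. Of 58 list medians, 36 moved by more than the spread between replicates under at least 1 alternative, and those that changed sign had medians near 0. The libraries number 3 a group, the depth of each library is unknown beyond a minimum per sample that the study's methods state, and genes under 1 TPM had a median SE of 0.34, so small changes at low levels were not detectable here.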
